A study of Homo sapiens with 6 samples.

Results

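The genes described here encode the transport machinery and the gate of the primary cilium. They comprise the intraflagellar transport complexes IFT-A and IFT-B, the BBSome with its chaperones and its GTPase, the transition zone, the dynein-2 motor and a few membrane and centriole proteins. Members were the rows of the count table whose gene symbol equalled 1 of 54 listed names. All 54 were found among 58735 rows, and 53 of them were among the 15935 genes with enough reads to test.

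RNA came from RD cells, an established line derived from embryonal rhabdomyosarcoma, a tumor with features of skeletal muscle. Both groups had been transduced with a lentivirus that expresses an shRNA: a scrambled sequence in 3 samples, used as control, and a sequence against TAK1 in 3 samples. TAK1, encoded by MAP3K7, is a kinase downstream of cytokine and TGF-beta family receptors, and the comparison asks which transcripts differ once it is depleted. Only 1 TAK1 shRNA construct was sequenced, so the loss of TAK1 and other actions of the construct cannot be told apart. The labels number the replicates without saying how the cultures were separated, so the p-values measure the spread between these samples.

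The primary cilium is a single antenna of microtubules that grows from the older centriole when a cell leaves the division cycle, and it is taken down again before mitosis. Kinesin-2 carries IFT-B trains to the tip, and dynein-2 with IFT-A brings them back, while IFT-A also helps membrane proteins to enter. The BBSome is an adaptor that moves receptors out through the transition zone, a set of linked complexes at the base that sorts membrane and soluble proteins. Myoblasts are known to carry such a cilium, and Hedgehog signalling in vertebrate cells depends on it.

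The libraries held between 28839898 and 34469323 counts. MAP3K7 was measured at 77.9, 76.5 and 77.6 CPM (counts scaled by normalized library size) with scrambled shRNA. With TAK1 shRNA it was measured at 30.5, 33.6 and 29.9 CPM, a log2 fold change of -1.30 (standard error, SE, 0.062). The adjusted p was 4.45e-14 by the quasi-likelihood test of edgeR, adjusted over all genes by the Benjamini-Hochberg method, and every knockdown library lay below every control. The myogenic factors MYOD1 and MYOG were read in all 6 libraries, at 263 ± 8.03 and 141 ± 6.07 CPM (SD, n = 3) in the controls, and MYF5 had 0 counts in every library. None of 8 markers of immune, endothelial, epithelial, liver or kidney cells had more than 15 counts in a library.

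A gene was called when its adjusted p was under 0.05 and its log2 fold change, TAK1 shRNA minus scrambled shRNA, was at least 0.25 in size. By that rule 26 of the 53 tested members were higher in TAK1 knockdown cells, or 49.1%, against 11.8% of all genes tested. In the other direction 2 members were lower, TMEM237 and POC1B, against 11.3% of all genes tested. The median log2 fold change of the members was 0.27, and that of all genes tested was 0.018. A value above 0 was found for 43 members and a value below 0 for 10, that is 81.1% above 0 compared with 52.5% of all genes tested. In bulk RNA, fewer cells of a type and less RNA per cell cannot be told apart.

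**Figure D1:**
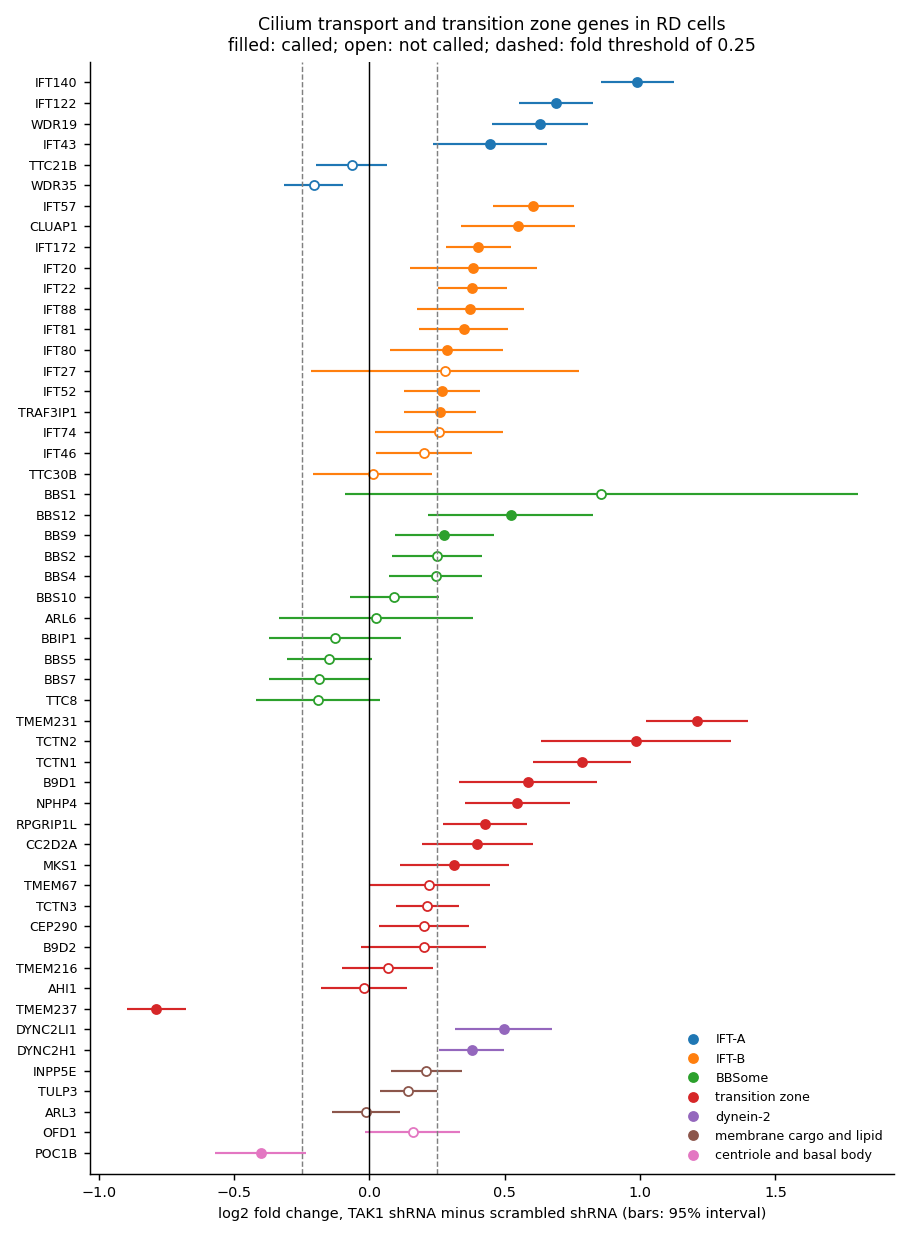
Log2 fold change of each of the 53 tested members, TAK1 shRNA minus scrambled shRNA (3 libraries each), with bars for the 95% interval and colors for the complexes. Filled points passed the call rule and open points did not. TMEM231 lies highest at 1.21 and TMEM237 lowest at -0.79, and the BBSome points gather around 0.

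The 4 main groups differed in how many members were called. In IFT-A 4 of 6 were higher with a median log2 fold change of 0.54, in IFT-B 10 of 14 with a median of 0.32, and in the transition zone 8 of 15 with a median of 0.31. In the BBSome group 2 of 11 were higher and the median was 0.091. Both dynein-2 subunits among the members were higher. No test was run of the difference between the groups, since the genes of a group are not replicates.

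The shift was seen in each TAK1 shRNA library. The median over the 53 members of log2 CPM relative to the control mean was -0.033, 0.036 and 0.014 in the scrambled libraries. It was 0.22, 0.32 and 0.30 in the TAK1 shRNA libraries. Summed over the members, expression ran from 1379 to 1410 CPM in the controls and from 1541 to 1633 CPM in the knockdown. The groups did not overlap for 36 of the 53 tested members and for 6991 of the 15935 genes tested. Among the 28 called members, where little overlap is built into the call, IFT80 overlapped.

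**Figure D2:**
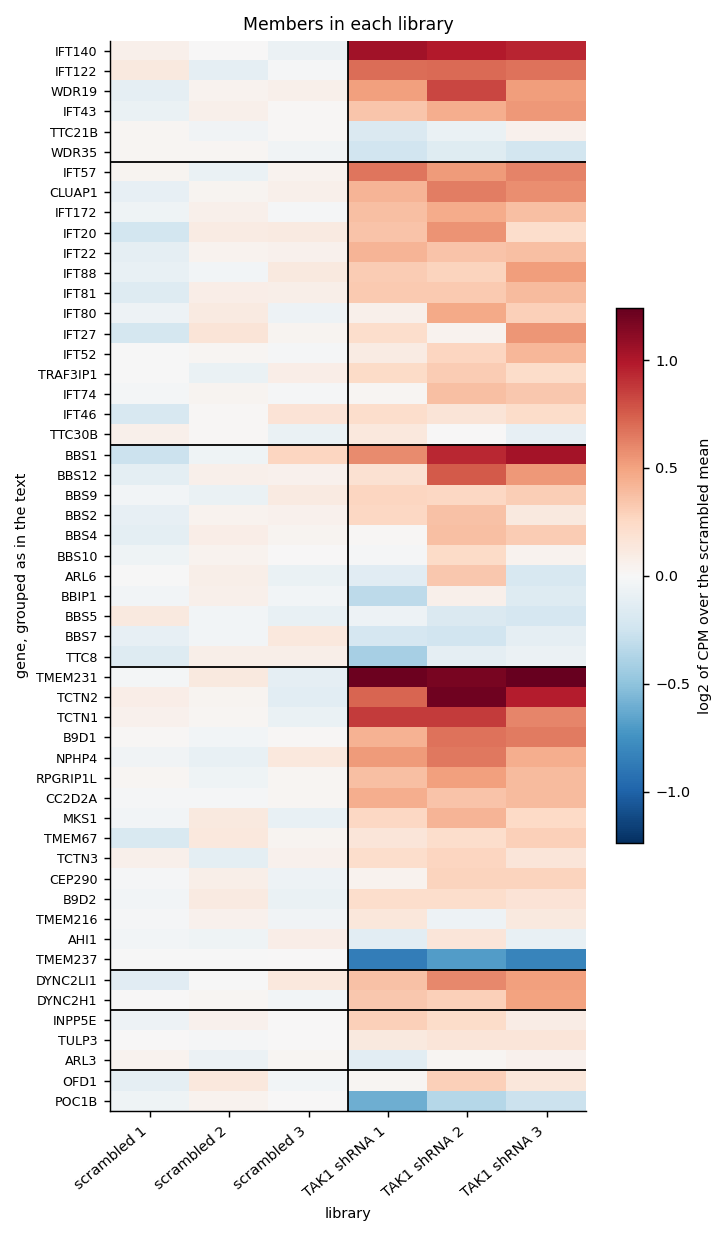
Heat map of the 53 tested members (rows, grouped by complex and ordered by fold change) in the 6 libraries (columns), as log2 of CPM over the scrambled mean, with red above and blue below it. The IFT-A, IFT-B and transition zone rows are red in all 3 TAK1 shRNA columns for most genes, whereas the BBSome rows are mixed.

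Transcripts differed widely in abundance. Divided by the length of the canonical transcript, the mean scrambled level ran from 0.088 CPM per kilobase for BBS1 to 32.7 CPM per kilobase for TCTN3, with a median of 6.09. TCTN3, a tectonic of the transition zone, was followed by IFT52 at 27.5 and TULP3 at 25.0 CPM per kilobase. TMEM237 was at 22.2 CPM per kilobase with scrambled shRNA and stood well below the diagonal of equal levels. Among genes of at least 10 CPM, 23 of 43 members were called higher, against 12.6% of all such genes.

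**Figure D3:**
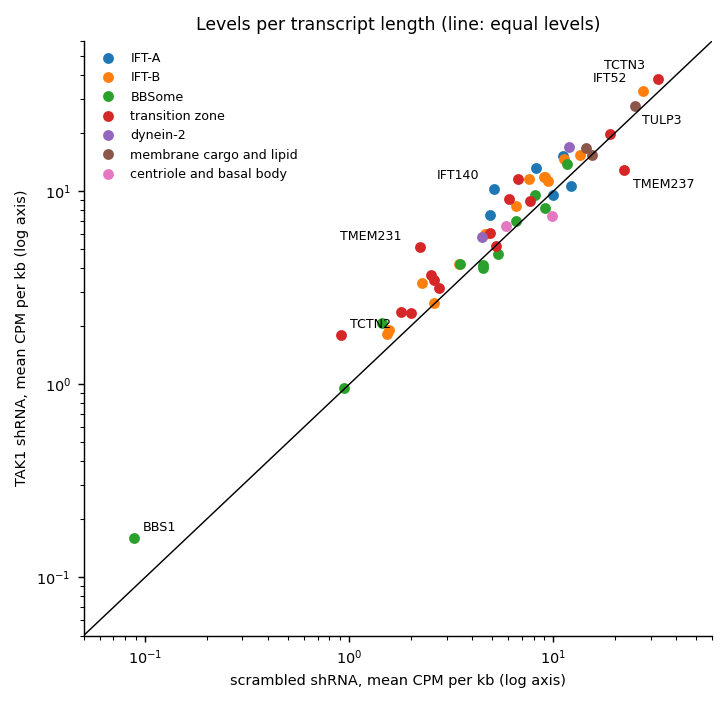
Mean CPM per kilobase of transcript with TAK1 shRNA (vertical, log axis) against scrambled shRNA (horizontal, log axis) for the 53 tested members, colored by complex, with a line where both are equal. Most points lie above the line at low and high levels alike, and TMEM237 lies below it.

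RFX transcription factors are known regulators of cilium genes, which they bind at a motif called the X-box. The promoters in the RefSeq table (GRCh38.p14, 250 bases before to 50 after each start) were searched on both strands for the half-site GTTGCCA or GTTGCTA. They were also searched for a facing pair, GTTNCC and its reverse complement with 1 to 3 bases between, and a pair may overlap a half-site. An entry was found for 47 of the 54 members, with 58 promoters. The sequences below show where the match lies in called members of each complex, and in ARL6, which holds a pair and was not called. Each runs from 100 bases before the start to 30 after it, on the strand of the gene, with the half-site or pair in capitals.
TMEM231 (chr16:75556223-75556352, minus strand): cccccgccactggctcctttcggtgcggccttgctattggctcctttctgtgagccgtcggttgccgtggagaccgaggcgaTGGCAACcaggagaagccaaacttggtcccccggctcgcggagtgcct
TCTN1 (chr12:110614029-110614158, plus strand): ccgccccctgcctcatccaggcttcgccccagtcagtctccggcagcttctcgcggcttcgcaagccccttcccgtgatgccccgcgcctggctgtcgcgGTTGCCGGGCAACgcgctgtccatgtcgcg
IFT122 (chr3:129440124-129440253, plus strand): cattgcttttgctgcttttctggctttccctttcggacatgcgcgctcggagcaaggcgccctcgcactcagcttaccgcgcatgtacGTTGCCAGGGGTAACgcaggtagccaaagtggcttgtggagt
CLUAP1 (chr16:3500904-3501033, plus strand): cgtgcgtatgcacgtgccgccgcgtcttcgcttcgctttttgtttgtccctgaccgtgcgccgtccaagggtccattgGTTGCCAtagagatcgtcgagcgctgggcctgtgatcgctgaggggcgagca
DYNC2LI1 (chr2:43773939-43774068, plus strand): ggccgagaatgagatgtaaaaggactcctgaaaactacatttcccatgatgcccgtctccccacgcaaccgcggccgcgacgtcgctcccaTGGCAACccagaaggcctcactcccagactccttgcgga
BBS12 (chr4:122732604-122732733, plus strand): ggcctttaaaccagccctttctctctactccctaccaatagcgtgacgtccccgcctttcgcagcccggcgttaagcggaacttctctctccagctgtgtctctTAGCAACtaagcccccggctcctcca
ARL6 (chr3:97764658-97764787, plus strand): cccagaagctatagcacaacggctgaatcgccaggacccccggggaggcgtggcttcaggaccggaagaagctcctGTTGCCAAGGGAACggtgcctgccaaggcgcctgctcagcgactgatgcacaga

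A half-site was present in 22 of the 58 member promoters, or 37.9%, against 6.75% of all 35116 promoters in the table and 6.05% of the promoters of tested genes. A facing pair was present in 5 member promoters, or 8.62%, against 0.718% of all promoters. The pairs were those of IFT122, TCTN1, TCTN3, ARL6 and BBIP1, of which the first 2 were called higher. In 16 of the 58 member promoters a half-site began within 50 bases of the start, against 1.90% of the promoters of tested genes.

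Read by gene, 12 of the 23 members called higher that have an entry held a half-site, and 6 of the 24 not called higher did. The promoters of TMEM237 and POC1B, the 2 members called lower, held none. Among all tested genes with an entry, the members included, 17.8% of those with a half-site were called higher and 11.8% of those without. These are matches of letters in a window, and binding was not measured.

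**Figure D4:**
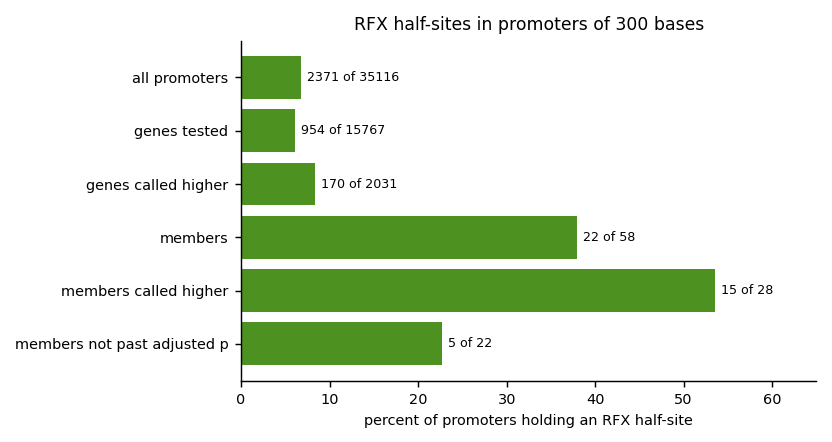
Percent of promoters with at least 1 RFX half-site (horizontal) in sets of promoters of 300 bases (vertical), with the number of promoters beside each bar. The bar of the members stands at 37.9% and that of all promoters at 6.75%.

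IFT-A is the complex of retrograde trains. Its largest change was in IFT140 (ENSG00000187535, chromosome 16 from 1510427 to 1612072, GRCh38), one of the subunits around which the complex is built. IFT140 was read at 28.0, 27.0 and 25.6 CPM with scrambled shRNA and at 55.5, 53.0 and 51.7 CPM with TAK1 shRNA. Every knockdown library was therefore above every control library, with means of 26.9 ± 1.23 and 53.4 ± 1.93 CPM (SD, n = 3). The log2 fold change was 0.99 with an SE of 0.066 (adjusted p = 1.53e-11, edgeR).

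IFT122, the core subunit whose promoter is shown above, was read at 36.3, 31.0 and 33.1 CPM in the controls and at 54.0, 54.4 and 53.4 CPM in the knockdown. The 3 knockdown values lay close together and above all controls, a log2 fold change of 0.69 (adjusted p = 9.8e-09, edgeR). WDR19, also known as IFT144, shares no exon with another annotated gene. It went from 19.9, 22.0 and 22.4 CPM to 30.5, 38.2 and 30.8 CPM, without overlap and with the second knockdown library highest (log2 fold change 0.63, adjusted p = 2.51e-06, edgeR). IFT43, a small peripheral subunit, rose from 8.62, 9.56 and 9.21 to 11.6, 12.5 and 13.2 CPM, a log2 fold change of 0.45 (adjusted p = 0.00133, edgeR).

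The other IFT-A subunits did not move with these. TTC21B (IFT139) had a log2 fold change of -0.066 with a 95% interval from -0.20 to 0.066. WDR35 (IFT121) was slightly lower in every knockdown library, at -0.21, which passed the adjusted p (0.00364, edgeR) but not the fold threshold. Split after the values were seen, the core subunits IFT140, IFT122 and WDR19 were 3 of 3 higher and the remaining subunits 1 of 3.

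IFT-B drives trains toward the tip and is built of a core, IFT-B1, and a peripheral part, IFT-B2. All 14 tested subunits among the members had a log2 fold change above 0, and 10 were called higher. The members do not hold every IFT gene. Of 12 further IFT, BBSome and dynein-2 genes, 4 were higher, and TTC26 (IFT56) was lower at -0.39. HSPB11, from the same list, was at -0.19 and not called. The 6 IFT-B2 subunits were all called, with a median of 0.39, and 4 of the 8 tested IFT-B1 subunits were called, with a median of 0.27. The summed level of IFT-B ran from 298 to 319 CPM in the controls and from 384 to 401 CPM in the knockdown, so the totals did not overlap either.

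IFT57, an IFT-B2 subunit on chromosome 3 from 108160812 to 108222435 with no exon shared with another gene, had the largest change of the complex. It was read at 23.7, 21.8 and 23.8 CPM with scrambled shRNA and at 36.6, 33.3 and 35.5 CPM with TAK1 shRNA. The groups were far apart relative to their spread (log2 fold change 0.60, SE 0.072, adjusted p = 3.59e-07, edgeR). CLUAP1 (IFT38), the partner of IFT57 in the train, whose promoter half-site begins 22 bases before the start, went from 8.65, 9.53 and 9.70 to 12.5, 14.5 and 13.8 CPM. Its log2 fold change was 0.55 (adjusted p = 0.000141, edgeR).

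IFT172, a large IFT-B2 subunit, was measured at 46.7, 50.4 and 47.9 CPM in the controls and at 62.6, 66.4 and 62.7 CPM in the knockdown. All knockdown values were higher, by 0.40 on the log2 scale (adjusted p = 6.53e-06, edgeR). IFT20, the subunit that also sits at the Golgi, went from 8.23, 10.4 and 10.4 to 12.4, 14.2 and 11.2 CPM, the groups lying nearer to each other (log2 fold change 0.38, adjusted p = 0.0107, edgeR). Without scrambled replicate 1 or TAK1 shRNA replicate 2 the IFT20 call was lost, at 0.28 in both cases. In IFT20, 36.4% of the 75-base words of the transcript also occur in TMEM97, which overlaps it on the opposite strand.

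The other called IFT-B subunits had smaller changes. On the log2 scale they were 0.38 for the GTPase IFT22, 0.37 for the core scaffold IFT88, 0.35 for the tubulin carrier IFT81, 0.29 for IFT80, 0.27 for IFT52 and 0.26 for TRAF3IP1 (IFT54). Of these, IFT80 lost its call without any 1 of 4 libraries (0.18 without TAK1 shRNA replicate 2), IFT52 without TAK1 shRNA replicate 3 (0.18), and TRAF3IP1 without scrambled replicate 2 (0.22) or TAK1 shRNA replicate 2 (0.23). For IFT22, 79.3% of the words also occur in other annotated genes, among them EMSLR on the opposite strand, and for IFT80 47.9% do. Not called were IFT27 at 0.28, IFT74 at 0.26, IFT46 at 0.20 and TTC30B at 0.012. IFT27, the other GTPase, was read at only 1.68 ± 0.219 CPM in the controls, and its interval ran from -0.22 to 0.78. TTC30A, a near copy of TTC30B, had 0 counts in all 6 libraries, which allows up to 0.104 CPM (3 counts in the smallest library), and was not tested.

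Dynein-2 pulls the trains back to the base. Its heavy chain DYNC2H1 was read at 61.4, 62.3 and 59.9 CPM in the controls and at 77.3, 74.9 and 86.3 CPM in the knockdown, a log2 fold change of 0.38 (adjusted p = 1.67e-05, edgeR). The light intermediate chain DYNC2LI1 went from 15.2, 16.7 and 18.3 to 21.6, 25.4 and 23.8 CPM, a log2 fold change of 0.50 (adjusted p = 7.93e-05, edgeR). Neither gene overlapped between the groups or shares an exon with another annotated gene, and both promoters hold a half-site.

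The BBSome group consisted of 8 subunits, the chaperonin-like assembly factors BBS10 and BBS12, and the GTPase ARL6 (BBS3) that recruits the complex to membranes. BBS12 had the larger of the 2 called changes. It was read at 4.33, 4.92 and 4.87 CPM with scrambled shRNA and at 5.37, 7.98 and 6.85 CPM with TAK1 shRNA. The knockdown values were higher but spread widely (log2 fold change 0.52, SE 0.15, adjusted p = 0.00796, edgeR), and the call was lost without the second knockdown library, where the log2 fold change was 0.38.

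BBS9, a subunit with a propeller domain, went from 13.5, 13.1 and 15.0 to 16.7, 16.5 and 17.2 CPM, a log2 fold change of 0.28 (adjusted p = 0.0179, edgeR). Its call was lost without scrambled replicate 1 (0.26), scrambled replicate 2 (0.24) or TAK1 shRNA replicate 3 (0.25). BBS2 at 0.25 and BBS4 at 0.24 passed the adjusted p (0.0192 and 0.0267, edgeR) and fell just short of the fold threshold. The remaining subunits and factors lay on both sides of 0. BBS10 was at 0.091, ARL6 at 0.024, BBIP1 at -0.13, BBS5 at -0.15, and BBS7 and TTC8 both at -0.19, none of them past the adjusted p. Words shared with other annotated genes made up 61.7% of the BBIP1 transcript (with PDCD4), 38.6% of BBS2 and 33.7% of BBS5, and how the counting treated such reads is not given in the sources used here. With BBS1, the BBSome group held 4 of the 8 members with over 30% of their words shared.

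BBS1 had the highest point estimate of the group, 0.86, on counts of 7, 9 and 11 against 13, 20 and 20. Its interval ran from -0.092 to 1.80, and 97.8% of the words of its transcript also occur in overlapping annotated genes. The BBSome group also differed between the knockdown libraries: its median relative to the control mean was -0.019, 0.25 and 0.042 in TAK1 shRNA replicates 1, 2 and 3. The spread between libraries was larger than the median change of 0.091, which became 0.011 without replicate 2 and 0.19 with an offset for GC content.

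The transition zone held the largest change of all members. TMEM231 (ENSG00000205084, chromosome 16 from 75536741 to 75556289, minus strand), a membrane protein of the tectonic and Meckel syndrome (MKS) complex, was read at 9.21, 10.2 and 8.69 CPM with scrambled shRNA. With TAK1 shRNA it was read at 21.7, 21.2 and 22.1 CPM. The means of 9.38 ± 0.779 and 21.7 ± 0.487 CPM (SD, n = 3) gave a 2.31-fold difference, a log2 fold change of 1.21 (SE 0.091, adjusted p = 1.64e-10, edgeR). Of its 75-base words, 13.0% occur in other annotated genes, among them the pseudogene TMEM231P1.

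The tectonics TCTN1 and TCTN2 belong to the same complex. TCTN2 rose from 2.81, 2.73 and 2.43 to 4.38, 6.14 and 5.21 CPM, the lowest knockdown value lying well above the controls (log2 fold change 0.98, adjusted p = 6.15e-05, edgeR). TCTN1, whose promoter holds a facing pair at its start, rose from 15.5, 15.2 and 14.0 to 27.1, 27.2 and 22.7 CPM (log2 fold change 0.79, adjusted p = 1.11e-07, edgeR). The third tectonic, TCTN3, is the most abundant and changed less, by 0.21 (adjusted p = 0.00463, edgeR), under the fold threshold.

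Other proteins of this gate were also higher. They were the B9-domain protein B9D1 at 0.59, NPHP4 at 0.55 and RPGRIP1L at 0.43, which belong to the nephronophthisis module, and the MKS complex members CC2D2A at 0.40 and MKS1 at 0.31. The MKS1 call was lost without scrambled replicate 1 (0.30), scrambled replicate 3 (0.27) or TAK1 shRNA replicate 2 (0.25). Not called were TMEM67 at 0.22, CEP290 at 0.20, B9D2 at 0.20, TMEM216 at 0.067 and AHI1 at -0.020. Of these 5, CEP290, the linker between microtubules and membrane, had an adjusted p of 0.0571 (edgeR), and AHI1 had an interval from -0.18 to 0.14.

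TMEM237 moved in the opposite direction from its complex. This tetraspanning membrane protein (ENSG00000155755, chromosome 2 from 201620184 to 201643570) was read at 120, 119 and 120 CPM in the controls. It was read at 66.0, 74.1 and 68.0 CPM in the knockdown, so all 3 values lay far below the controls. The log2 fold change was -0.79 (SE 0.053, adjusted p = 2.22e-11, edgeR). Its transcript shares 32.7% of its words with other annotated genes, among them the pseudogene ENO1P4, which overlaps it on the same strand.

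TMEM237 was also the most abundant transition zone transcript in CPM before length was taken into account. The summed level of the group ran from 374 to 382 CPM in the controls and from 386 to 413 CPM in the knockdown, although 13 of the 15 genes had a fold change above 0.

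POC1B, a centriole protein needed for stable basal bodies, was the other member called lower. It was read at 28.6, 30.6 and 29.8 CPM with scrambled shRNA and at 19.4, 23.1 and 24.6 CPM with TAK1 shRNA, without overlap (log2 fold change -0.40, adjusted p = 0.000416, edgeR). OFD1, a centriolar satellite protein on the X chromosome, had a log2 fold change of 0.16 with an interval from -0.017 to 0.34.

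The 3 proteins that deliver or modify ciliary membrane were not called. INPP5E, the phosphatase that sets the lipid makeup of the cilium, was at 0.21 (adjusted p = 0.0126, edgeR), and TULP3, which carries receptors in with IFT-A, was at 0.14 (adjusted p = 0.0303, edgeR). Both passed the adjusted p only. ARL3, which unloads lipidated cargo, was at -0.013 with an interval from -0.14 to 0.11.

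Of the 25 tested members that were not called, 17 were above 0 and 8 below, and 6 had an interval lying within 0.25 of 0 on both sides. Overlap with neighboring genes touched many members, since the strand setting of the counting is not given in the sources used here. Exons of 32 members overlap those of another annotated gene, 12 of them on the same strand. Among the 32 are IFT140, IFT43, CLUAP1, TMEM231 and POC1B, with overlap on the same strand, and IFT122 and TCTN1, with overlap on the opposite strand. TCTN1 shares 14.6% of its words, with HVCN1. Of the 22 members free of such overlap, 12 were called higher, and their median log2 fold change was 0.26. At an adjusted p under 0.05 without a fold threshold, WDR35 was the only member below 0 to join TMEM237 and POC1B.

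Genes of the same pathway outside the members were read from lists. The counts of each list below stand beside shares over all genes tested of 11.8% higher and 11.3% lower. Of 12 further IFT, BBSome and dynein-2 genes, 4 were higher and 1 lower. DYNLRB1, a light chain that dynein-2 shares with cytoplasmic dynein, was at 0.95 on the log2 scale and the GTPase RABL2B, whose reads could be split with its near copy RABL2A, at 0.52. WDR60, a dynein-2 intermediate chain, was at 0.28, and TTC26 (IFT56) fell by 0.39. WDR34 at 0.21 and DYNLL1 at -0.19 passed the adjusted p but not the fold threshold. Among 6 genes of kinesin-2 and the ciliary kinesins 3 were higher, with KIF17 at 0.69 and KIF3A and KIF3C at 0.33 each. The other kinesin-2 genes did not rise. KIF3B at -0.15 passed the adjusted p but not the fold threshold, and KIFAP3 at -0.096 was not past the adjusted p. KIF7, a Hedgehog regulator at the ciliary tip, was lower at -0.26.

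Of 19 other transition zone and inversin genes 5 were higher, among them ARMC9 at 0.53, INTU at 0.31 and CPLANE1 at 0.26. Of 12 ciliary membrane GTPases and lipid carriers 3 were higher, namely TUB at 0.42, UNC119 at 0.36 and UNC119B at 0.31. In that list 6 genes were above 0 and 6 below, and none of the GTPases was called. RAB8A at -0.248 and RP2 at -0.19 passed the adjusted p but not the fold threshold. Of 21 distal appendage and centriole genes 6 were higher (28.6%) and 2 lower (9.52%, near the 11.3% of all genes tested). They ran from FBF1 at 0.63 and CBY1 at 0.45 to CEP135 at -0.32 and POC5 at -0.41. In these 3 lists the median log2 fold change was 0.17, 0.041 and 0.038, below that of the members.

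Of 11 genes of cilium disassembly, 4 were lower, 1 was higher and 6 were not called. AURKA, the kinase that triggers disassembly, was measured at 160, 161 and 157 CPM with scrambled shRNA and at 95.7, 92.6 and 96.4 CPM with TAK1 shRNA. All 3 knockdown values lay below all controls (log2 fold change -0.75, adjusted p = 7.44e-12, edgeR). The microtubule depolymerase KIF2A was at -0.46, the scaffold NEDD9 at -0.39 and the kinase PLK1 at -0.25. KIF24, a centriolar kinesin, was higher at 0.35.

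A list of RFX and GLIS factors and regulators of multiciliated cells held 11 tested genes, of which 6 were higher and 1 was lower. Not all of them are known activators of cilium genes. RFX3, a ciliogenic RFX factor, rose from 4.85, 4.32 and 5.03 to 7.52, 5.92 and 6.51 CPM (log2 fold change 0.49, adjusted p = 0.00814, edgeR), without overlap. RFX5, known as a regulator of MHC class II genes, was at 0.26, GLIS3 at -0.40 and RFX2 at 0.10, the last not past the adjusted p. FOXJ1, the factor of motile cilia, had the largest fold change at 2.09, on counts of 5, 1 and 5 against 12, 21 and 19.

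Motile axoneme genes were tested for 12 of 20 listed names, of which 6 were higher. The radial spoke gene RSPH4A rose from 4.15, 3.71 and 3.99 to 15.5, 17.7 and 17.4 CPM (log2 fold change 2.10, adjusted p = 3.63e-13, edgeR), while ZMYND10, a dynein assembly factor, reached 2.36 at low counts. CCDC40 at 0.83 and SPEF2 at 0.64 were the smallest called changes. The listed genes DNAI1, DNAI2, TEKT1, SPAG6 and RSPH1 had at most 8 counts in a library and were not tested. DNAH5 had 34, 29 and 23 counts with scrambled shRNA and 45, 50 and 55 with TAK1 shRNA, without overlap. Its log2 fold change was 0.69 (adjusted p = 0.0735, edgeR). MCIDAS, from the list of factors above, had 127 to 179 counts and a log2 fold change of -0.14. Neither gene was called.

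Hedgehog genes, whose products pass through the cilium, were higher in 3 of 10 cases. GLI2 rose from 37.3, 37.0 and 38.0 to 66.6, 54.3 and 57.7 CPM, a log2 fold change of 0.67 (adjusted p = 4.03e-08, edgeR). EVC, a protein at the ciliary base, was at 0.51 and GLI3 at 0.27. The pathway's target genes were not called, with GLI1 at 0.086 and PTCH1 at -0.17.

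Proliferation markers moved in the opposite direction from most members. All 12 listed markers had a log2 fold change below 0, with a median of -0.32, and 9 were called lower, from TOP2A at -0.27 and AURKB at -0.30 to CDK1 at -0.43 and PCNA at -0.50. Their summed level ran from 3072 to 3150 CPM in the controls and from 2406 to 2578 CPM in the knockdown. In the same libraries MYOD1 was higher at 0.37 and MYOG at 0.27, and CHRNA1, a subunit of the muscle acetylcholine receptor, was lower at -0.40. The part of proliferation and of the myogenic genes in the changes of cilium genes was not tested.

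**Figure D5:**
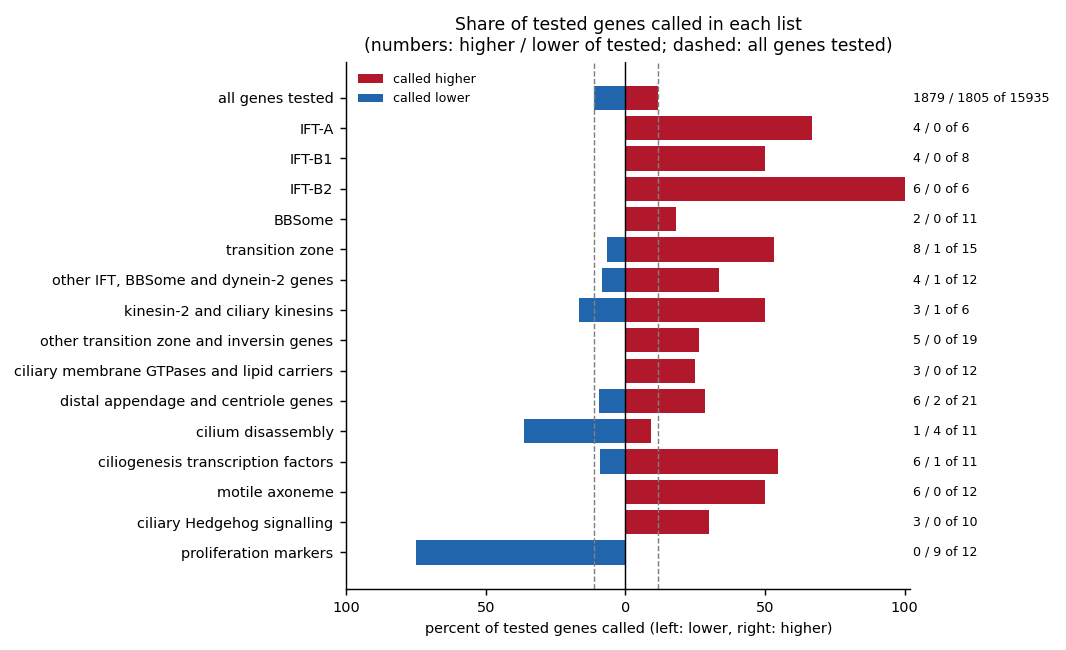
Percent of tested genes called higher (red, to the right) and lower (blue, to the left) in each list, with the counts beside the bars and dashed lines at the shares over all 15935 genes tested. The IFT-B2 bar reaches 6 of 6 higher, the BBSome bar 2 of 11, and the bar of the proliferation markers points to the left with 9 of 12.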

How the data were processed

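Poly(A)-enriched RNA from 6 RD samples was sequenced as paired reads. The authors deposited raw counts of reads per gene, not normalized, made by CASAVA base calling, filtering of reads with adaptors or poor quality, and STAR alignment to GRCh38 (hg38), per the labels and methods. The counting program, the annotation release and the use of strand are not given in the sources used here. Samples were grouped by their labels.

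The deposited counts were tested with edgeR 4.0.16 under R 4.3.3, using the default expression filter (15935 genes kept, at least 99.9% of each library), trimmed mean of M-values factors, the quasi-likelihood test without a replicate term and Benjamini-Hochberg adjustment over the genes tested. SE was obtained as log2 fold change over the root of F. The common biological coefficient of variation was 5.66%. Within groups, chi-square per degree of freedom between replicates was 2.80 to 7.94, above sampling noise. With 3 against 3 samples the smallest exact permutation p is 0.1, so single values rest on the fit across all genes. The script was tested on simulated data first.

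Alternatives were DESeq2 1.42.0, limma 3.58.1 (voom), 3 other normalizations, 2 filters, 2 fold thresholds, a replicate block, GC and length offsets (known for 90% of tested genes) and leaving out each sample. Length, GC content and shared 75-base words came from GENCODE 44 canonical transcripts, and exon overlap from its gene models. Of 57167 names in the counts, 36501 matched GENCODE by symbol and 887 by synonym. The members and lists were chosen with earlier results of these data known. Values per sample are given for the 4 called members with the largest absolute log2 fold change in IFT-A, IFT-B, the BBSome group and the transition zone, for all called members of smaller groups and for members called lower. Other called members are named with their log2 fold change, and members not called with their value or range. From other lists the 2 largest and 2 smallest called changes are named, except 1 that is not reported here, and the other genes of those lists were added after their values were seen. Promoter entries were not found for BBS9, IFT22, TCTN2, TMEM67, TTC30A, TTC30B and WDR35.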

Additional observations from a re-analysis of the deposited data

How the results depend on the processing

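The direction of all 28 called members held under every alternative run. The number called higher was 21 to 29 with 1 library left out (lowest without TAK1 shRNA replicate 2, where BBS12, IFT20, IFT80, MKS1 and TRAF3IP1 were lost) and 2 were lower each time. DESeq2 and limma-voom each called the same 26 and 2. With a fold threshold of 0.5 the counts were 11 higher and 1 lower, and with none 31 and 3. The shares of all genes tested were 4.61% higher and 4.27% lower at 0.5, and 16.1% and 17.2% with none. Scaling by library size alone gave 32 higher, with 62.9% of all calls higher in place of 51.0%, and shifted the median of all genes to 0.066, that of the members to 0.32 and that of the transition zone to 0.36. The GC offset called 31 members higher and gave an IFT-B median of 0.39, as did the GC offset with the replicate block (0.39).

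Leaving out 1 library gave medians from 0.23 to 0.34 for the members, 0.48 to 0.59 for IFT-A, 0.27 to 0.36 for IFT-B, 0.011 to 0.14 for the BBSome group and 0.25 to 0.37 for the transition zone, and a MAP3K7 log2 fold change from -1.36 to -1.28. The BBSome median moved by over 1.5 times without TAK1 shRNA replicate 2 (0.011) or replicate 1 (0.14), with library size alone (0.14) and with the GC offset (0.19). Samples with the same replicate number were hardly correlated in their deviations (r = 0.037, 0.036 and 0.016). With 3 libraries per group these values cannot decide whether such samples shared a culture or day, which the labels do not give. A replicate block called 26 members higher and 2 lower, the same genes. BBS1, IFT27 and TTC30A had few or no counts, for which the cause was not tested.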
